A study of Mus musculus with 15 samples.

Results

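The 10 genes described here are testis ADAM genes, Adam1a, Adam1b, Adam2, Adam3, Adam5, Adam18, Adam24, Adam29, Adam30 and Adam32, chosen by name from the 50051 annotated features counted in the RNA-seq libraries. All 10 symbols matched a feature, and 9 of them held enough counts to be tested among 20782 features. RNA came from whole testes of mice at postnatal day 28, labelled strain B6D2F1, in a series on a piRNA-producing locus of chromosome 18. Total RNA was depleted of ribosomal RNA and sequenced with strand information in 3 wild-type (Chr18+/+), 3 heterozygous (Chr18+/-) and 3 homozygous (Chr18-/-) libraries, and the labels call the wild-type and heterozygous mice controls. Small RNA was sequenced after periodate treatment, which spares piRNAs through the methyl group at their 3′ end, from 3 heterozygous and 3 homozygous libraries, with no wild-type library. How the locus was disrupted, and whether libraries of a group came from different animals, is not stated in the labels. The p-values therefore reflect the spread among the libraries, which may be technical.

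ADAM proteins are membrane proteins with a metalloprotease domain and a disintegrin domain. In the male germ line several of them are made in spermatocytes and spermatids, pair with each other in the endoplasmic reticulum, and are cut during sperm maturation on their way to the sperm surface. Mouse sperm that lack ADAM2 or ADAM3 bind poorly to the egg coat and fail to enter the oviduct, and chaperones such as calmegin are needed for ADAM3 to reach the surface.

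Coordinates are on mm10, as counted by the authors, and all 10 features are annotated protein-coding genes. A run of 4 neighbours on the minus strand of chromosome 8 forms a tandem cluster, in the order Adam18 (chr8:24602246-24674755), Adam3 (chr8:24677225-24725852), Adam5 (chr8:24727093-24824369) and Adam32 (chr8:24836140-24948804), each with 20 to 23 separate exon blocks. Adam2 lies alone on the minus strand of chromosome 14 (chr14:66027329-66077733) with 21 exon blocks. Adam1b, Adam24, Adam29 and Adam30 have few exon blocks, though Adam29 spans 36037 bases. Adam1b (chr5:121500098-121503435, minus strand) has 1 exon block, and Adam24 (chr8:40675077-40682199, plus strand), Adam29 (chr8:55870912-55906948, minus strand) and Adam30 (chr3:98160630-98164169, plus strand) have 2 each. Adam1a (chr5:121518576-121522071, minus strand) is covered over 98.94% of its length by Gm42878 on the same strand.

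The family divides by its catalytic site, which the choice of genes did not use. An active ADAM protease holds zinc with 3 histidines and uses a glutamate beside the first of them. The coding stretches below are from GENCODE M21 transcripts and read 5′ to 3′. They are shown because the called genes of this family all lack a complete site, as do Adam2, Adam3 and Adam29, which were not called. Capitals mark the codons aligned to the 3 histidines and the glutamate. Codons 342 to 353 of Adam24, 337 to 348 of Adam30, 338 to 349 of Adam1b, 338 to 349 of Adam29, 319 to 330 of Adam2, 322 to 333 of Adam3, 317 to 328 of Adam5, 315 to 326 of Adam18 and 322 to 333 of Adam32 are given.
Adam24: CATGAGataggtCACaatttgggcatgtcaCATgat
Adam30: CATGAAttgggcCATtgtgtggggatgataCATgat
Adam1b: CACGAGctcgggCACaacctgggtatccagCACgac
Adam29: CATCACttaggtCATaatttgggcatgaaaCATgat
Adam2: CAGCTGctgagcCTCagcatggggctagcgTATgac
Adam3: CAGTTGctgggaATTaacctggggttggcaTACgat
Adam5: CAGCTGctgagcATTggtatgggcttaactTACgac
Adam18: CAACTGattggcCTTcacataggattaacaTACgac
Adam32: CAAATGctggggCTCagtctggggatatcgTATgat
Adam1a, Adam1b, Adam24 and Adam30 hold all 4 codons, and Adam1a has the same bases as Adam1b throughout this stretch. Adam29 holds 3 of the 4, without the glutamate. Adam2 and the cluster genes Adam3, Adam5, Adam18 and Adam32 hold 0 of 4.

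The disintegrin loop is the part of ADAM2 that has been studied as a contact with the egg, through a glutamate, cysteine and aspartate. Capitals mark the codons aligned to that triplet, at codons 449 to 463 of Adam2, 456 to 470 of Adam3 and 447 to 462 of Adam18.
Adam2: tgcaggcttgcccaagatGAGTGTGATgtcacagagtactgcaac
Adam3: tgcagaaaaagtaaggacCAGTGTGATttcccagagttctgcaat
Adam18: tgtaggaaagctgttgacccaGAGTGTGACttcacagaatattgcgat
Over whole coding sequences, Adam1a and Adam1b are the closest pair, with 78.1% identical bases over 2256 aligned bases. Adam24 and Adam29 share 56.6% and Adam3 and Adam18 share 53.5%, and the most distant pair, Adam5 and Adam29, shares 40.9%.

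RNA-seq libraries held 21684791 to 41513634 counted fragments on the strand read by the kit. Fragments on the opposite strand came to at most 0.343% of those on both strands together for 8 of the genes. For Adam1b, all of which lies inside Tmem116 on the other strand, they came to 1.13 to 2.02%. The main precursor of the chromosome 18 locus had 9595, 7283 and 5609 counts in wild type, in heterozygotes 8948, 3983 and 4422, and in homozygotes 4, 6 and 3, not corrected for depth. The homozygous libraries lay far below the others. Heterozygous and wild-type counts overlapped only as uncorrected counts, and relative to depth every heterozygous library lay below every wild-type one. Heterozygous library 1 had fewer counts than wild-type library 1 at a greater depth (41513634 against 36936068 fragments). Heterozygous libraries 2 and 3 (28639855 and 28876549 fragments) had fewer than wild-type libraries 2 and 3 (26807554 and 21684791). Wild-type library 1 stood apart from the other libraries of its group: its scaling factor was 0.879 against 0.98 to 1.054 elsewhere, and Adam3, Adam5, Adam18, Adam24, Adam29 and Adam32 were each at their lowest of all 9 libraries in it. Chi-square per degree of freedom between 2 libraries measures how far they differ, and grows with depth. It was 43.9 and 46.8 between wild-type library 1 and the others of its group, which differed by 2.96. Heterozygous library 1 differed from its group by 36.4 and 39.5. Log2 fold changes without wild-type library 1 are given for Adam3, Adam24, Adam29 and the family median. The family sum, profile and most alike features include it.

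Levels are CPM, counts relative to library size after TMM scaling, and comparisons between genes are per kb of length. In wild type, per kb of merged exons, Adam3 stood at 349 ± 55.7 CPM (SD, n = 3) and Adam5 at 325 ± 30.9. Adam2 followed at 192 ± 5.09, Adam32 at 116 ± 3.71 and Adam18 at 56.1 ± 2.65. Adam24 (34.1 ± 7.07), Adam1b (25.1 ± 2.01), Adam30 (18.0 ± 0.6) and Adam29 (16.5 ± 4.26) were the lowest, also per kb of exon. Neighbours in this order whose libraries overlapped were Adam3 and Adam5, Adam24 and Adam1b, and Adam30 and Adam29. Counts were taken over whole gene bodies, introns included, and per kb of gene body the order differs, because the cluster genes have long introns: Adam1b came first at 25.1 CPM, then Adam3 at 21.1, Adam30 at 18.0, Adam24 at 13.8, Adam5 at 10.4, Adam2 at 10.3, Adam32 at 3.08, Adam18 at 1.83 and Adam29 at 1.25. On either scale Adam3 exceeded Adam2, Adam32 and Adam18.

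The calls between genotypes fell in the gene cluster on chromosome 8. Adam18, Adam5 and Adam32 rose in homozygotes against wild type, and Adam18 and Adam32 rose in heterozygotes against wild type. These are 3 of the 9 tested genes in homozygotes, where 20.8% of all tested features were called in either direction and 9.68% as higher. They are 2 of 9 in heterozygotes, where 23.9% of all features were called and 11.1% as higher. In whole testis, a different number of cells of a type and a different amount of RNA per cell cannot be told apart. Homozygotes and heterozygotes are both compared with the same 3 wild-type libraries, so the comparisons are not independent.

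Adam18, which encodes a sperm protein also called tMDC III, was at 126, 134 and 138 CPM in wild type, in heterozygotes 168, 158 and 186, and in homozygotes 176, 170 and 196. All 6 libraries with a disrupted locus lay above all 3 wild-type libraries. Of all features, 42.6% did not overlap with wild type in homozygotes and 42.1% in heterozygotes, so a lack of overlap is common here. The homozygous level was 136% of wild type (log2 fold change 0.45, SE 0.094, adjusted p = 0.00836 in edgeR's quasi-likelihood test) and the heterozygous level 129% (0.37, SE 0.094, adjusted p = 0.0170). The call in homozygotes was also made in all 16 alternative settings tried, with log2 fold changes of 0.38 to 0.49. The adjusted p reached 0.0453 in them, close to the threshold. The call in heterozygotes was lost only without heterozygous library 3 (log2 fold change 0.30, adjusted p = 0.0625).

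Adam5, another cluster gene made in germ cells, was at 906, 1056 and 1087 CPM in wild type, in heterozygotes 1199, 1193 and 1439, and in homozygotes 1267, 1384 and 1522. Again no library of either mutant genotype reached down to the wild-type range. The homozygous level was 137% of wild type (log2 fold change 0.45, SE 0.117, edgeR adjusted p = 0.0195), and this call was lost without homozygous library 2 (0.46, adjusted p = 0.0662) and without homozygous library 3 (0.38, adjusted p = 0.0861). In heterozygotes the log2 fold change of 0.33 (SE 0.117) missed the threshold in edgeR (adjusted p = 0.0593) and passed it in 4 of 16 alternatives, with DESeq2 (adjusted p = 0.0257) and, in edgeR, without scaling (0.0392), with no filter (0.0388) and without heterozygous library 1 (0.0469).

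Adam32, the fourth gene of the cluster, was at 335, 352 and 355 CPM in wild type, in heterozygotes 393, 408 and 454, and in homozygotes 420, 433 and 425. The groups did not overlap with wild type here either. The log2 fold change was 0.29 (SE 0.087, edgeR adjusted p = 0.0329) in homozygotes and 0.27 (SE 0.087, adjusted p = 0.0427) in heterozygotes. Both calls were near the threshold. In homozygotes the adjusted p ranged from 0.00437 to 0.112 over the alternatives, 8 of 16 called it, and leaving out any 1 library of either group ended the call (adjusted p = 0.0603, 0.0805 and 0.0734 without wild-type libraries 1, 2 and 3, and 0.0645, 0.112 and 0.0941 without homozygous libraries 1, 2 and 3). In heterozygotes 5 of 16 alternatives called it, with adjusted p from 0.0119 to 0.247, and of the settings that leave out 1 library only the one without heterozygous library 1 kept the call.

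Adam3, which encodes cyritestin, a protein needed for binding to the egg coat and for passage into the oviduct, was at 839, 1108 and 1136 CPM in wild type, in heterozygotes 1083, 1184 and 1366, and in homozygotes 1181, 1211 and 1426. Homozygous libraries lay above the wild-type range, the lowest heterozygous library inside it. The test did not pass in either comparison (log2 fold change 0.31, SE 0.137, edgeR adjusted p = 0.128 in homozygotes, and 0.24, SE 0.137, adjusted p = 0.227 in heterozygotes). Without wild-type library 1 the log2 fold change was 0.18 in homozygotes (adjusted p = 0.317) and 0.11 in heterozygotes (adjusted p = 0.544).

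**Figure D1:**
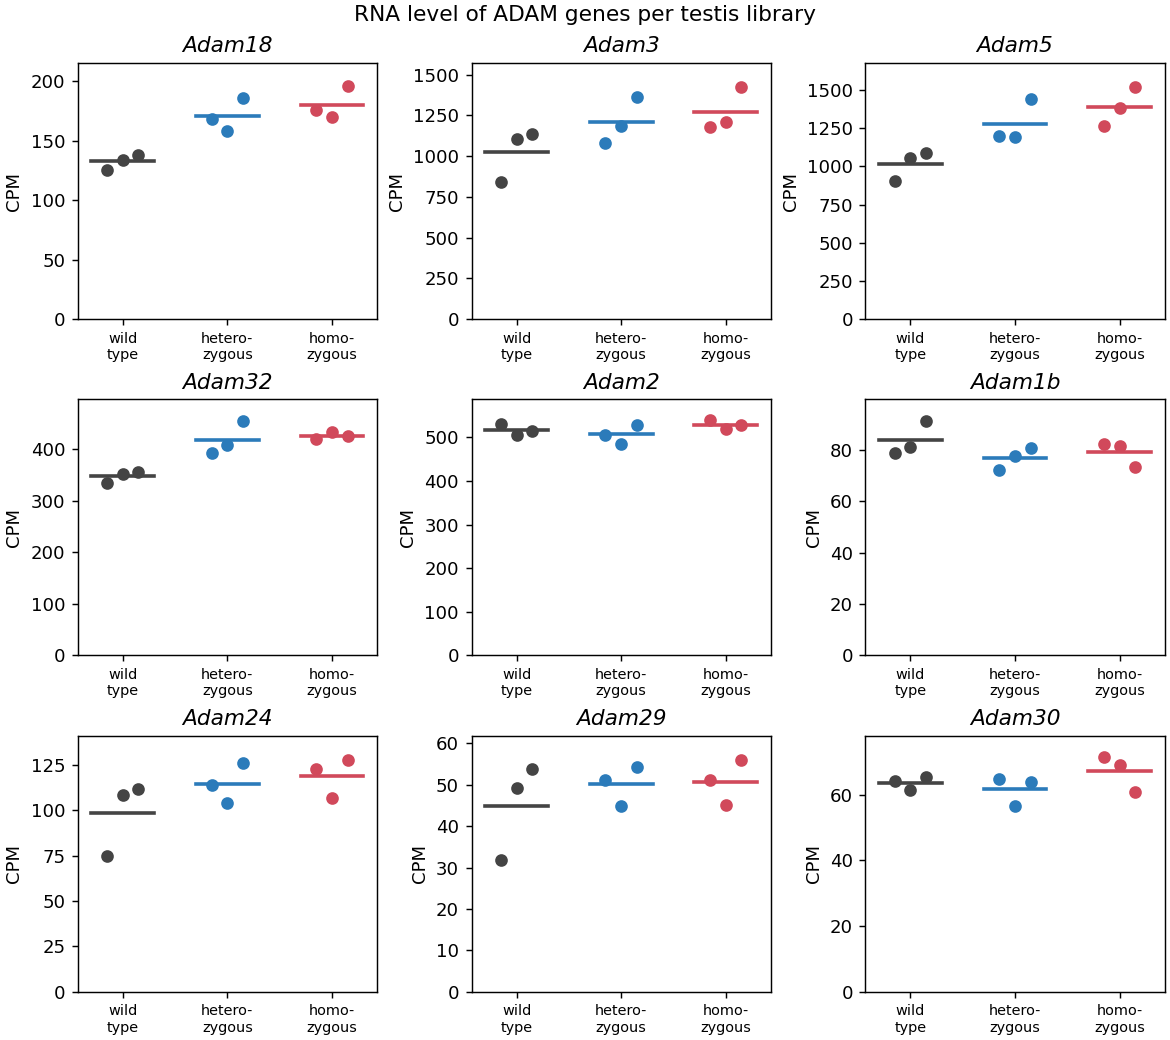
Level of 9 ADAM genes in each RNA-seq library, in CPM from an axis starting at 0, with 3 libraries per genotype as points and their mean as a line. For Adam18, Adam5 and Adam32 all heterozygous and homozygous libraries lie above the wild-type ones, while for Adam2, Adam1b and Adam30 the genotypes overlap. Of all features, 42.6% in homozygotes and 42.1% in heterozygotes do not overlap with wild type. Wild-type library 1 is the low point for Adam3, Adam5, Adam18, Adam24, Adam29 and Adam32.

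Fertilin is a pair of ADAM proteins, with ADAM2 as its beta subunit and ADAM1a or ADAM1b as its alpha subunit. Adam2 was at 532, 505 and 514 CPM in wild type, in heterozygotes 506, 486 and 529, and in homozygotes 541, 519 and 528. The genotypes overlapped, with 102% of the wild-type level in homozygotes (95% interval of the log2 difference -0.15 to 0.21, edgeR adjusted p = 0.798). The value in heterozygotes, a log2 difference of -0.03, became 0.07 without scaling between libraries (adjusted p = 0.834 and 0.554). Adam1b, the alpha subunit of the form of fertilin found on mature sperm, was at 78.8, 81.2 and 91.4 CPM in wild type, in heterozygotes 72.2, 77.7 and 80.9, and in homozygotes 82.6, 81.6 and 73.5. These values overlapped too, and the log2 fold change was -0.08 (SE 0.092, adjusted p = 0.564) in homozygotes and -0.12 (SE 0.092, adjusted p = 0.350) in heterozygotes. Adam1a, the alpha subunit of a form that acts inside the cell on ADAM3, had 1 count in wild-type library 3 and 0 in the other 8 libraries. Fragments that fall in overlapping features of 1 strand were not counted, so these counts do not measure its RNA and no comparison was made.

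Adam24, Adam29 and Adam30 lie outside the cluster and were compared last. Adam24, which encodes testase 1, a protease of the sperm surface, was at 74.9, 109 and 112 CPM in wild type, in heterozygotes 114, 104 and 126, and in homozygotes 123, 107 and 128. The other two wild-type libraries lay within the range of the mutant genotypes, and only library 1 lay below it. The log2 fold change was 0.28 (SE 0.143, edgeR adjusted p = 0.186) in homozygotes and 0.22 (SE 0.143, adjusted p = 0.278) in heterozygotes, and 0.11 and 0.06 without wild-type library 1. Adam29, whose testis role is little known, was at 31.7, 49.1 and 53.8 CPM in wild type, in heterozygotes 51.1, 45.0 and 54.4, and in homozygotes 51.2, 45.1 and 56.0. Its log2 fold changes of 0.18 and 0.16 against wild type (adjusted p = 0.463 and 0.501) became -0.02 and -0.03 without wild-type library 1. Adam30, with an intact zinc site, was at 64.2, 61.4 and 65.5 CPM in wild type, in heterozygotes 64.7, 56.6 and 63.8, and in homozygotes 71.4, 69.2 and 60.8. Its genotypes overlapped, with log2 fold changes of 0.08 (adjusted p = 0.587) in homozygotes and -0.05 (adjusted p = 0.754) in heterozygotes, where the second turned to 0.05 without scaling.

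Over the family, groups did not overlap for 4 of 9 genes between homozygotes and wild type and for 3 of 9 between heterozygotes and wild type, beside 42.6% and 42.1% of all features. The median log2 fold change over the 9 genes was 0.28 in homozygotes and 0.22 in heterozygotes, against -0.01 and 0 over all tested features. Without wild-type library 1 these medians were 0.11 and 0.06. The direction of calls over all features depended on scaling: 2012 higher and 2307 lower in homozygotes became 2225 and 1688 without scaling, and 2302 and 2675 in heterozygotes became 3175 and 1575. The 3 called ADAM genes had positive log2 fold changes against wild type under every setting. All are among the 5 genes with 0 of 4 zinc-site codons, and the 4 tested genes with 3 or 4 of these codons were not called. Adam29, with 3 of them, lacks the glutamate codon and so has no complete site either. Adam2 and Adam3, also with 0 of 4, were not called. The called genes all lie in the chromosome 8 cluster, so zinc site and location cannot be told apart. Codons of called ADAM genes outside the family were not compared. This split was seen after the values were known and was not tested.

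Gene body length moves with these results. The cluster genes are long, and the average log2 difference of features as long as Adam18, Adam5 and Adam32 was 0.05, 0.06 and 0.07 in homozygotes against wild type and 0.09, 0.12 and 0.14 in heterozygotes. Features as short as Adam24 averaged -0.13 in both comparisons. With this trend removed, an alternative chosen after the data were seen, Adam18 and Adam5 were still called in homozygotes, Adam32 was not (log2 fold change 0.23, adjusted p = 0.0518), and Adam32 in heterozygotes was at 0.13 (adjusted p = 0.247). The same correction moved the short genes upward: in homozygotes Adam24 went to 0.40 (adjusted p = 0.0658), Adam30 to 0.23 (adjusted p = 0.109) and Adam1b to 0.07 (adjusted p = 0.630), and in heterozygotes Adam24 went to 0.36 (adjusted p = 0.0952).

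**Figure D2:**
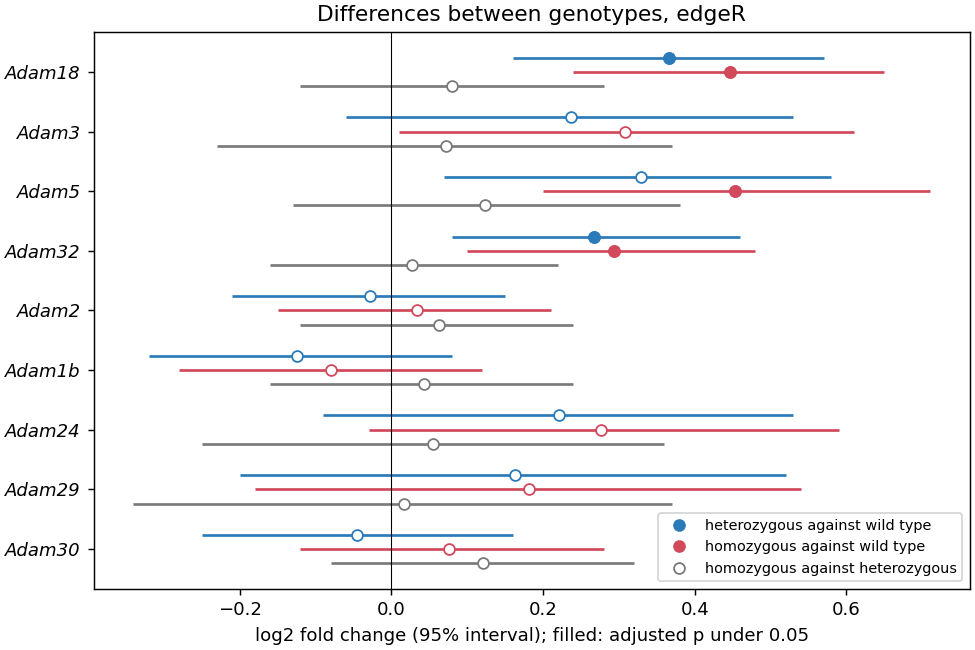
Log2 fold change of 9 ADAM genes in 3 comparisons between genotypes, with 95% intervals as lines and filled points for an adjusted p under 0.05 in edgeR. Adam18 and Adam32 are filled in both comparisons with wild type and Adam5 in homozygotes, while no gene is filled between homozygotes and heterozygotes.

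Homozygotes and heterozygotes did not differ detectably in any ADAM gene. None of the 9 genes was called by edgeR or DESeq2, 0 had an unadjusted p under 0.05, and 0 had groups that did not overlap, where 0.0289% of all features were called and 8.31% did not overlap. All 9 log2 differences were positive, between 0.02 for Adam29 and 0.12 for Adam5 and Adam30, with a median of 0.06 against 0.01 for all features, and each adjusted p was 0.9997. Without scaling Adam1b, Adam29 and Adam32 turned to -0.01, -0.03 and -0.02. The 95% interval of the log2 difference was -0.12 to 0.28 for Adam18, -0.13 to 0.38 for Adam5, -0.23 to 0.37 for Adam3 and -0.16 to 0.22 for Adam32. It was -0.12 to 0.24 for Adam2, -0.16 to 0.24 for Adam1b, -0.25 to 0.36 for Adam24, -0.34 to 0.37 for Adam29 and -0.08 to 0.32 for Adam30. Differences within these intervals remain compatible with the values of 3 libraries per group. The intervals are not limits of detection.

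The ratio of a cluster gene to Adam2 within a library needs no scaling between libraries. Adam18 stood at 0.236, 0.266 and 0.268 counts per count of Adam2 in wild type, in heterozygotes 0.332, 0.326 and 0.351, and in homozygotes 0.325, 0.327 and 0.371. Adam5 stood at 1.70, 2.09 and 2.11 in wild type, in heterozygotes 2.37, 2.46 and 2.72, and in homozygotes 2.34, 2.67 and 2.88. Adam32 stood at 0.629, 0.699 and 0.690, then 0.776, 0.839 and 0.858, then 0.776, 0.835 and 0.804 in the same order of genotypes. For these 3 genes the wild-type ratios were below all others, with and without library 1. Adam3 stood at 1.58, 2.2 and 2.21 in wild type, in heterozygotes 2.14, 2.44 and 2.58, and in homozygotes 2.18, 2.33 and 2.70, and here the groups overlapped. The ratios use the same counts as the levels above, where Adam2 differed little between genotypes, and are no separate evidence. They show unequal levels of the genes, not that Adam2 was constant.

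**Figure D3:**
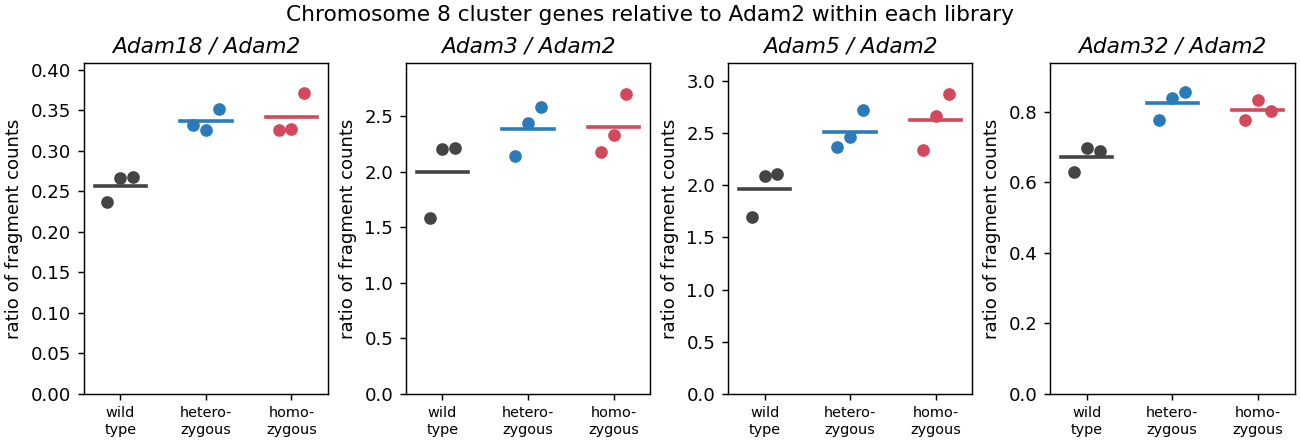
Counts of the 4 cluster genes divided by counts of Adam2 in the same library, with 3 libraries per genotype as points and their mean as a line, on axes starting at 0. For Adam18, Adam5 and Adam32 the 3 wild-type points lie below all other points, while for Adam3 the wild-type libraries 2 and 3 reach the range of the mutant genotypes.

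The 10 genes together held 3332 ± 303 CPM in wild type (2987 to 3552), 3887 ± 357 in heterozygotes (3651 to 4298) and 4116 ± 265 in homozygotes (3912 to 4415), most of it from Adam3 and Adam5. These are CPM and sum genes of different length. Over the 9 libraries, the median of the genes' centred log2 levels was lowest in wild-type library 1 (-0.345) and highest in homozygous library 3 (0.222) and heterozygous library 3 (0.199). Adam3 followed this family profile most closely, with a root mean square difference of 0.066 in log2 units, then Adam32 and Adam24 (both 0.087), Adam5 (0.093), Adam18 (0.102) and Adam29 (0.124). Adam2 (0.157), Adam30 (0.176) and Adam1b (0.19) were the farthest from it. The 5 features outside the ADAM family closest to the profile, by the same measure over 9 libraries, were Mtdh, a membrane protein of the endoplasmic reticulum (0.03), Lrriq3, with leucine-rich repeats (0.045), Zfp558, a zinc finger gene (0.045), Etf1, a factor of translation termination (0.047), and Otud6b, a deubiquitinase (0.049). Among 12562 features compared the median difference was 0.231, and the closest 5% lay below 0.108.

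Marker genes of germ cell stages differed between genotypes in the same libraries. The counts of called markers below stand beside 20.8% of all features in homozygotes and 23.9% in heterozygotes, both against wild type. Early meiotic prophase markers, such as synaptonemal complex genes, summed to 1692 to 1801 CPM in wild type, 2195 to 2796 in heterozygotes and 2433 to 2733 in homozygotes, and 10 of 10 rose in homozygotes and 9 of 10 in heterozygotes, with median log2 fold changes of 0.56 and 0.49. Elongating spermatid markers, such as protamines, summed to 15280 to 15920, 5005 to 12710 and 8392 to 11330 CPM, and 6 of 12 fell in homozygotes and 7 of 12 in heterozygotes, with medians of -0.80 and -0.85. Pachytene spermatocyte markers summed to 5934 to 6098, 5255 to 5411 and 5382 to 5586 CPM, with 2 of 9 higher and 1 lower in homozygotes, and 0 higher and 2 lower in heterozygotes. Round spermatid markers overlapped between genotypes at 881 to 1059, 960 to 1033 and 950 to 1076 CPM, with 1 of 10 higher in each comparison and 1 lower in homozygotes and 2 in heterozygotes.

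Leydig cell markers summed to 1228 to 1357 CPM in wild type, 558 to 723 in heterozygotes and 515 to 691 in homozygotes, with 7 of 9 lower in both comparisons and Insl3 listed at 0 in every library. Of Sertoli markers 0 of 10 were called in homozygotes and 2 of 10 were higher in heterozygotes, with sums of 993 to 1040, 826 to 936 and 874 to 1031 CPM. Of peritubular myoid markers 1 of 5 was lower in homozygotes and 0 in heterozygotes. Epididymal markers summed to 0.318 to 31.7, 0.183 to 11.0 and 0.105 to 2.73 CPM, with Lcn5 at 0 throughout. The part of the cell types in the ADAM results was not tested.

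**Figure D4:**
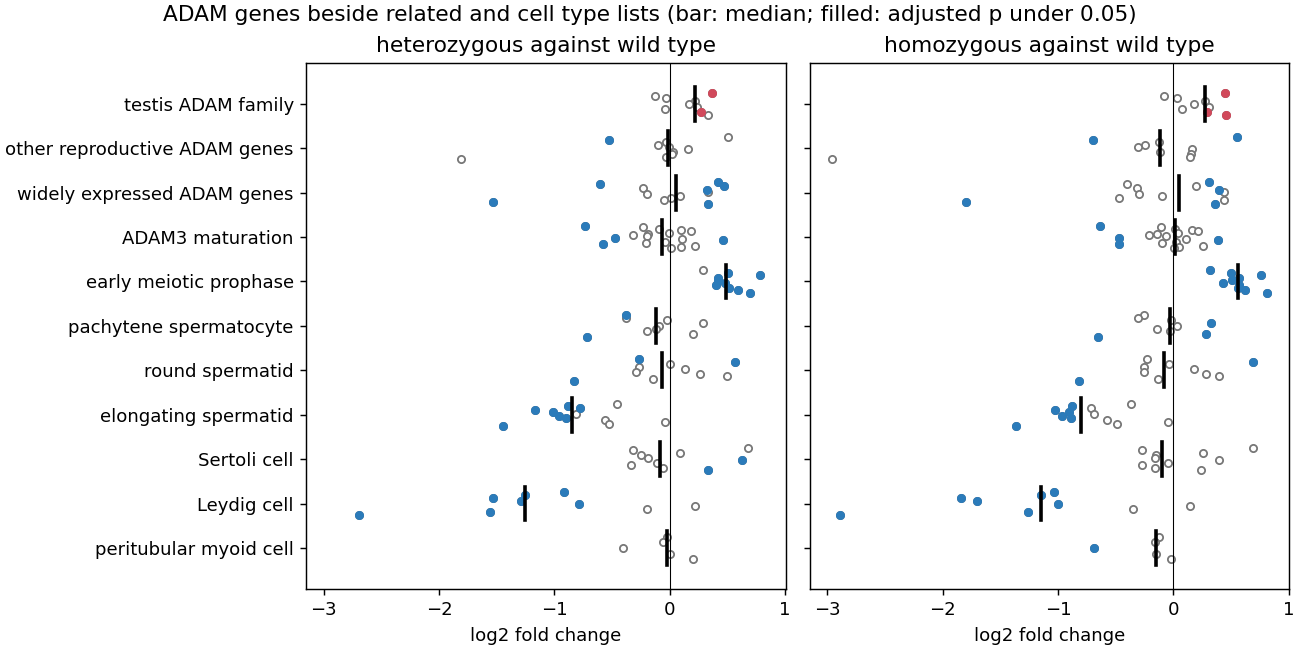
Log2 fold change against wild type of the ADAM genes and of lists of related genes and cell type markers, for heterozygotes on the left and homozygotes on the right, with a point per tested gene, a bar for the median and filled points for an adjusted p under 0.05. The ADAM medians of 0.22 and 0.28 lie below those of the early meiotic markers (0.49 and 0.56). They lie above those of the pachytene (-0.11 and -0.03) and round spermatid markers (-0.07 and -0.08), and elongating spermatid markers lie lowest among germ cell lists. Without wild-type library 1 the ADAM medians were 0.06 and 0.11, and those of the other lists were not computed.

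Other ADAM genes did not share a direction. Of 10 tested ADAM genes with known expression in the testis or epididymis, 1 rose and 1 fell in homozygotes (median log2 fold change -0.12), and 0 rose and 1 fell in heterozygotes (-0.02). Over all features 20.8% were called in homozygotes and 23.9% in heterozygotes. Adam21, a testis gene, fell by 0.70 on the log2 scale in homozygotes (SE 0.12, edgeR adjusted p = 0.00369) and by 0.53 in heterozygotes (adjusted p = 0.0102), and lost a call only in heterozygotes without scaling (adjusted p = 0.0565). Adam20 rose by 0.55 in homozygotes (SE 0.176, adjusted p = 0.0448), with 8 of 16 alternatives making the call, and was at 0.50 in heterozygotes (adjusted p = 0.0545). The call of Adam20 was lost without wild-type library 1 or 2, heterozygous library 2 or 3, or any 1 homozygous library, with an adjusted p of up to 0.112. Adam4 was at 0 in every library.

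Of 12 tested ADAM genes known from tissues outside the reproductive tract, 3 rose and 1 fell in homozygotes (median 0.04), and 4 rose and 2 fell in heterozygotes (0.05). The share called over all features was 20.8% and 23.9%. Adam8, a gene of leukocytes and other cells, fell from 4.15 CPM in wild type to 1.43 in heterozygotes and 1.19 in homozygotes, by 1.54 and 1.80 on the log2 scale (adjusted p = 0.00123 and 0.000599), and was called in all 16 alternatives in both. Adam10, a widely active sheddase, rose by 0.42 in heterozygotes in all 16 alternatives (adjusted p = 0.00659) and by 0.31 in homozygotes in 11 of them (adjusted p = 0.0261, up to 0.102). Adam17, another sheddase, rose by 0.33 in heterozygotes (adjusted p = 0.0245) and 0.40 in homozygotes (adjusted p = 0.0125), in 12 and 14 of 16 alternatives. Adam9, the next gene beyond Adam32 on chromosome 8, rose by 0.33 (adjusted p = 0.0430) and 0.36 (adjusted p = 0.0334), in 8 and 10 of 16 alternatives. In heterozygotes Adam12 rose by 0.47 (adjusted p = 0.0237) and Adam11 fell by 0.60 (adjusted p = 0.0351), in 11 and 9 of 16 alternatives. Calls in homozygotes were lost without any 1 wild-type library or homozygous library 2 or 3 for Adam9 and Adam10 (adjusted p up to 0.143 and 0.102), and without wild-type library 3 or homozygous library 2 for Adam17 (up to 0.0602). Calls in heterozygotes were lost without any 1 wild-type or heterozygous library or homozygous library 3 for Adam9 (up to 0.113), and without wild-type library 3 or heterozygous library 1 or 3 for Adam17 (up to 0.0972). Adam12 lost its call without wild-type library 1 or 3 or heterozygous library 1 or 3 (up to 0.0762), and Adam11 without library 3 of either mutant genotype or any 1 wild-type library (up to 0.12).

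Of 18 genes that act in the maturation of ADAM3 (chaperones, processing enzymes and anchoring proteins), 1 rose and 3 fell in each comparison with wild type, and the medians were 0.01 in homozygotes and -0.07 in heterozygotes. These counts are near the share called over all features, 20.8% in homozygotes and 23.9% in heterozygotes. Pgap1, an enzyme that remodels the lipid anchor of membrane proteins, rose by 0.38 in homozygotes (adjusted p = 0.0205, called in 13 of 16 alternatives) and by 0.46 in heterozygotes (adjusted p = 0.00882, called in 16). Ace, whose testis form is needed for ADAM3 distribution on sperm, fell by 0.64 in homozygotes (adjusted p = 0.0219, called in 12) and by 0.73 in heterozygotes (adjusted p = 0.0119, called in 16). The protease genes Prss55 and Pcsk4 fell by 0.48 and 0.47 in homozygotes (adjusted p = 0.0481 and 0.0272) and by 0.58 and 0.47 in heterozygotes (adjusted p = 0.0210 and 0.0239). Prss55 kept its call in 5 alternatives in homozygotes and 12 in heterozygotes, and Pcsk4 in 9 and 11. In homozygotes, leaving out any 1 homozygous library or wild-type library 1 ended the call of Ace (adjusted p up to 0.0686), leaving out wild-type library 3 or homozygous library 2 or 3 that of Pgap1 (up to 0.0796), and leaving out any 1 wild-type library or homozygous library 2 or 3 those of Prss55 and Pcsk4 (up to 0.108 and 0.109). Prss55 also lost it without heterozygous library 3 (0.0568) or homozygous library 1 (0.113). In heterozygotes, Prss55 lost its call without wild-type library 2 or 3 or heterozygous library 3 (up to 0.0557), and Pcsk4 without wild-type library 1 or 3 or heterozygous library 3 (up to 0.0833). Between homozygotes and heterozygotes 0 of these related ADAM and maturation genes were called, and 0 had an unadjusted p under 0.05.

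Few small RNA reads lay on the exons of ADAM genes, in libraries of 939641 to 1861402 counts over annotated genes. Adam2 had 57, 42 and 52 reads in heterozygotes and 40, 35 and 40 in homozygotes, which overlap in CPM (log2 fold change -0.32, SE 0.21, edgeR adjusted p = 0.655). Adam3 had 54, 39 and 35 against 50, 28 and 31 reads (-0.18, adjusted p = 0.821), and Adam30 had 64, 23 and 22 against 41, 49 and 27 (0.24, adjusted p = 0.840). For each of these genes the libraries of both genotypes overlapped. Adam32 had 36, 8 and 15 against 17, 19 and 15 reads (-0.07, adjusted p = 0.962), Adam5 had 29, 9 and 11 against 16, 15 and 21 (0.22, adjusted p = 0.874), and Adam1b had 17, 14 and 5 against 12, 3 and 5 (-0.79, SE 0.547, adjusted p = 0.668). Adam18, called in the most settings in long RNA, had 13, 3 and 5 against 12, 8 and 4 reads and was not tested. Adam24 had 0 to 4 reads per library, Adam29 had reads (3) only in homozygous library 3, and Adam1a, whose overlap with another gene also applies here, had 0 to 3.

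None of the 6 tested genes was called in small RNA by edgeR or DESeq2, and 0 had an unadjusted p under 0.05, where 0.0279% of 3581 features were called, 312 had such a p and 15.9% had groups that did not overlap. The 95% intervals of the log2 difference ran from -0.80 to 0.16 for Adam2 and from -0.67 to 0.32 for Adam3, and were wider for the others, from -2.03 to 0.46 for Adam1b. Without heterozygous small RNA library 1, which differed from the other libraries of its group, 617 features were called over all genes and 0 of the 5 ADAM genes then tested.

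**Figure D5:**
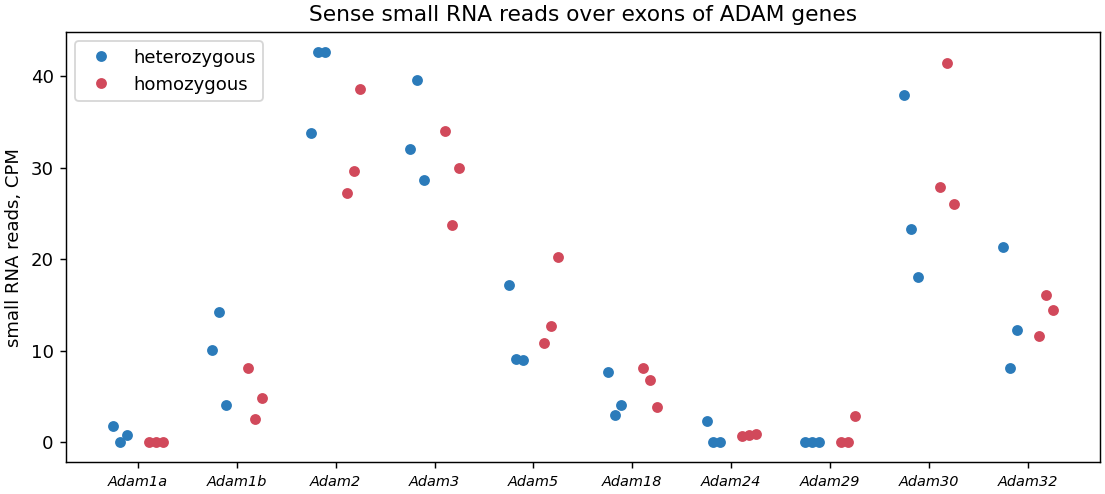
Small RNA reads over exons of the 10 ADAM genes, in CPM, with 3 heterozygous and 3 homozygous libraries as points. The highest values are near 40 CPM for Adam2, Adam3 and Adam30, the genotypes overlap for each tested gene, and Adam1a, Adam24 and Adam29 lie near 0.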

How the data were processed

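The authors deposited raw counts per feature, not normalized. Per the file headers, featureCounts 1.6.2 counted RNA-seq fragments over gene bodies with introns, by strand, and featureCounts 1.6.1 counted small RNA reads over exons of sense strand. Features were 49585 GENCODE genes and, in RNA-seq, 466 piRNA precursors. The submitters' processing notes name mm10 and mm9, HISAT2 2.1.0 and Bowtie2 2.2.5 without roles. The kit strand was used, and 49326 gene IDs had a symbol. Exon lengths and coding sequences came from GENCODE M21.

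All 9 RNA-seq libraries entered 1 fit in edgeR 4.0.16 (limma 3.58.1, R 4.3.3, data.table version 1.17.8) with filterByExpr, TMM scaling and the quasi-likelihood test, with Benjamini-Hochberg adjustment over all features and a threshold of 0.05. The 6 small RNA libraries were fitted likewise. Scripts were tested on simulated data. Adjusted p-values are edgeR's except where DESeq2 1.42.0 is given as the source. Beside this fit, the 16 alternative RNA-seq settings are DESeq2, RLE or no scaling, no filter, only the groups compared, both strands summed, each of 9 libraries left out and, added later, the length trend removed.

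Members and lists were chosen with earlier results of these data known. All members, all called ADAM genes, up to 4 genes of each related list with the lowest p, and the 5 most alike features (mean of at least 5 CPM, prior count 1) are named. Replicate numbers of RNA-seq follow sample order and pair nothing. Small RNA numbers come from the titles, and deviations of same-numbered libraries correlated at -0.15, 0.002 and -0.082, so they were not taken as pairs.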

Additional observations from a re-analysis of the deposited data

How the results depend on the processing

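With 9 ADAM genes tested and 3 libraries per group, the number of calls is small and moves with single libraries. The share called over all features moves with them too. In homozygotes against wild type 3 genes were called, and 2 to 3 in the settings that keep all libraries. Those settings called 14.1% to 24.6% of all features. Leaving out each library in turn gave 1 to 3, with 1 without homozygous library 2 or 3. The share over all features was then 8.55% to 22.5%, with 9% and 8.55% without homozygous library 2 and 3. In heterozygotes against wild type 2 genes were called, 3 with DESeq2 and without scaling, 1 in a fit of only the groups compared, and 1 with the length trend removed. These settings called 25.9%, 22.9%, 18.8% and 19.9% of all features. Leaving out each library in turn gave 0 to 3, with 0 without heterozygous library 3. The share over all features was then 11.6% to 22.4%, and lowest without heterozygous library 3. The lost calls were of Adam32 and Adam5 in homozygotes and of Adam32 in heterozygotes, with Adam18 lost there only without heterozygous library 3. The cause was not tested. No call was made between homozygotes and heterozygotes in any of the 16 alternatives, nor in small RNA in its settings, and the fit with a replicate block for small RNA also called 0. The sign of uncalled values turned as follows. Without scaling, log2 differences between homozygotes and heterozygotes became -0.01 for Adam1b, -0.03 for Adam29 and -0.02 for Adam32, and those of heterozygotes against wild type 0.07 for Adam2 and 0.05 for Adam30. With the length trend removed, Adam1b became 0.07 in homozygotes and 0.03 in heterozygotes against wild type, and Adam30 0.11 in heterozygotes. Leaving out single libraries gave, in homozygotes against heterozygotes, -0.02 to 0.09 for Adam32, -0.01 to 0.13 for Adam24, -0.07 to 0.10 for Adam29 and -0.03 to 0.17 for Adam3. Against wild type it gave -0.02 to 0.33 for Adam29 in homozygotes, -0.03 to 0.31 for Adam29 in heterozygotes and -0.08 to 0.01 for Adam30 in heterozygotes. In small RNA it gave log2 differences of -0.31 to 0.41 for Adam32 and -0.07 to 0.64 for Adam5.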
